A study of Mus musculus with 6 samples.

Results

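This account covers 58 of the 24062 genes in the deposited table, those whose mean level was under 0.5 counts per 1000000 counted reads (CPM) over the CDKO pools and at least 5 CPM over the control pools. They are 0.534% of the 10869 genes at or over 5 CPM in control. Rows carrying a date in place of a symbol were left out, and so were 8 eosinophil, basophil, mast cell and red cell genes removed by name (Prss34, Epx, Prg2, Prg3, Ms4a2, Fcer1a, Cma1 and Icam4). Of those 8 genes only Prss34, Epx and Ms4a2 met both thresholds, which 61 genes did before the removal. The 58 genes were thus chosen by the mean CPM of both groups, and their difference between groups is given as a description, with no test. The mirror rule, at least 5 CPM in CDKO and under 0.5 CPM in control, found 31 of 10683 genes, or 0.290%.

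The RNA came from mouse hematopoietic stem cells (HSC), the rare bone marrow cells that renew the blood. The CDKO mice were Nr4a1 fl/fl; Nr4a3-/-; Rosa26-ERt2, and the control mice were Nr4a1 fl/fl; Nr4a3-/- without the Rosa26 construct. Mice of both groups therefore lacked Nr4a3, carried floxed Nr4a1 and received tamoxifen at 120 mg per kg on 4 days, with sorting on day 5, so a group with intact Nr4a3 or without tamoxifen is not part of the comparison. The Rosa26 locus is active in most cell types, so the labels do not limit Nr4a1 excision to HSC. Each group had 3 libraries, each from a pool of 3 to 5 mice, and the ages and sorting markers are not given in the sources used here. The labels do not say how the pools were separated in time, so SD and p-values measure only the spread between these pools.

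NR4A1 and NR4A3 are orphan nuclear receptors, transcription factors that bind DNA without a known natural ligand. C/EBPα, named with them in the study's title, is a transcription factor of granulocyte development. HSC are known to carry low levels of transcripts that become abundant only in committed blood cells, such as red cell membrane proteins and granule proteins.

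Counted reads per library were 32863805 to 42772261 in CDKO and 36464747 to 42348692 in control, so 1 read was 0.0234 to 0.0304 CPM. A count of 0 allowed a level of up to 0.0913, 0.0723 and 0.0701 CPM in CDKO replicates 1, 2 and 3, and up to 0.0767, 0.0823 and 0.0708 CPM in the control replicates (3 counts, counting error only). Nr4a1 was at 8.52, 9.76 and 9.12 CPM in CDKO and at 15.2, 13.4 and 12.9 CPM in control. The log2(CPM + 1) difference was -0.55 (SE 0.12, limma adjusted p = 0.00204), on a count over the whole gene, since the labels do not say which exons are floxed. Nr4a3 had no read in any of the 6 libraries. Nr4a2, the third member of the family, averaged 2.43 ± 1.22 CPM in CDKO and 3.86 ± 0.282 CPM in control (SD, n = 3 each) and did not pass (limma adjusted p = 0.0547; 0.0115 without CDKO replicate 3). Cebpa, which encodes C/EBPα, fell to 0.892 ± 0.146 CPM in CDKO, against 6.75 ± 1.57 CPM in control (log2 difference -2.02, SE 0.17, limma adjusted p = 2.33e-06). It meets the control threshold of the rule and misses the CDKO threshold. Of 15 HSC markers tested, among them the surface proteins Esam and Tek, all had reads in both groups, and their summed level was 5701 to 5865 CPM in CDKO and 6119 to 6399 CPM in control.

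Stretches of promoter sequence are shown for 3 of the genes, because each bears on a different set of genes described below. Kel is a red cell gene, Retnlg the granulocyte gene with the highest control mean of the 58, and 2010002M12Rik a gene whose neighbour, which starts close by on the other strand, rose in CDKO. Sequences are from RefSeq, build GRCm38.p6, which is the build the authors call mm10, and read 5′ to 3′ on the named strand. For Kel (chr6:41704326-41704575, minus strand) and Retnlg (chr16:48872358-48872607, plus strand) the 250 bases before the start are given. For 2010002M12Rik and Ifit1 (chr19:34640744-34640888, plus strand) they are the 145 bases between the divergent transcript starts of the promoter table. Capitals mark AGATAA, the only form of the GATA factor motif searched for, in Kel. In Retnlg they mark the motif of C/EBP factors, TTGCNNAA, on the other strand. Similar letters, such as tgataa in Kel and agatag in Retnlg, were not searched for and are not marked. In the last they mark the interferon-stimulated response element (ISRE), on the other strand.
Kel: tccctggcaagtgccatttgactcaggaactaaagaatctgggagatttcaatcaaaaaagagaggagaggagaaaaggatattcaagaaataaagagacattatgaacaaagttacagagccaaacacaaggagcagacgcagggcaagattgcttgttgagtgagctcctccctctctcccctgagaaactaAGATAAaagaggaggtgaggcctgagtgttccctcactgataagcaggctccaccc
Retnlg: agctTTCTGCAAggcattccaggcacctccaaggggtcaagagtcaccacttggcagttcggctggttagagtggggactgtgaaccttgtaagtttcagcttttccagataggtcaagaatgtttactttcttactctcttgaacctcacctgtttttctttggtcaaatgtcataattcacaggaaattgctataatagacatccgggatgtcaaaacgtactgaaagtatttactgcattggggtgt
2010002M12Rik and Ifit1: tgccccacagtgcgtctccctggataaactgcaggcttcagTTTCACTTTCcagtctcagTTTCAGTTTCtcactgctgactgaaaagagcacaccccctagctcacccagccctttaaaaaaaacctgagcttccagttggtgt
The AGATAA of Kel starts 56 bases before the transcript start, and the C/EBP letters of Retnlg begin 246 bases before its start. GATA factors are known regulators of red cell genes, and C/EBP factors of granulocyte genes. A match is a description of these letters and not a bound site. In the promoter windows of the members described below, 9.26% held AGATAA and 13.0% the C/EBP letters, against 11.2% and 10.8% of all windows.

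The group as a whole held genes of low level in control. Control means ran from 5.01 to 21.9 CPM with a median of 6.93 CPM, and 45 of the 58 genes were under 10 CPM. CDKO means ran from 0 to 0.487 CPM with a median of 0.260 CPM. In reads, each gene had 0 to 61 over the 3 CDKO libraries together (median 32.5) and 590 to 2580 over the 3 control libraries (median 815.5). Every gene had all 3 CDKO pools below all 3 control pools, which the choice of genes makes likely, and so did 37.2% of the 13734 genes tested. The gap was smallest for Tgfa, whose lowest control value was 4.96-fold its highest CDKO value, and its median over the 54 genes with a CDKO read was 14.2-fold. All 58 genes passed the filter of a mean of 10 reads, as their control level obliged them to. In bulk libraries like these, fewer cells of a type and less RNA per cell cannot be told apart.

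**Figure D1:**
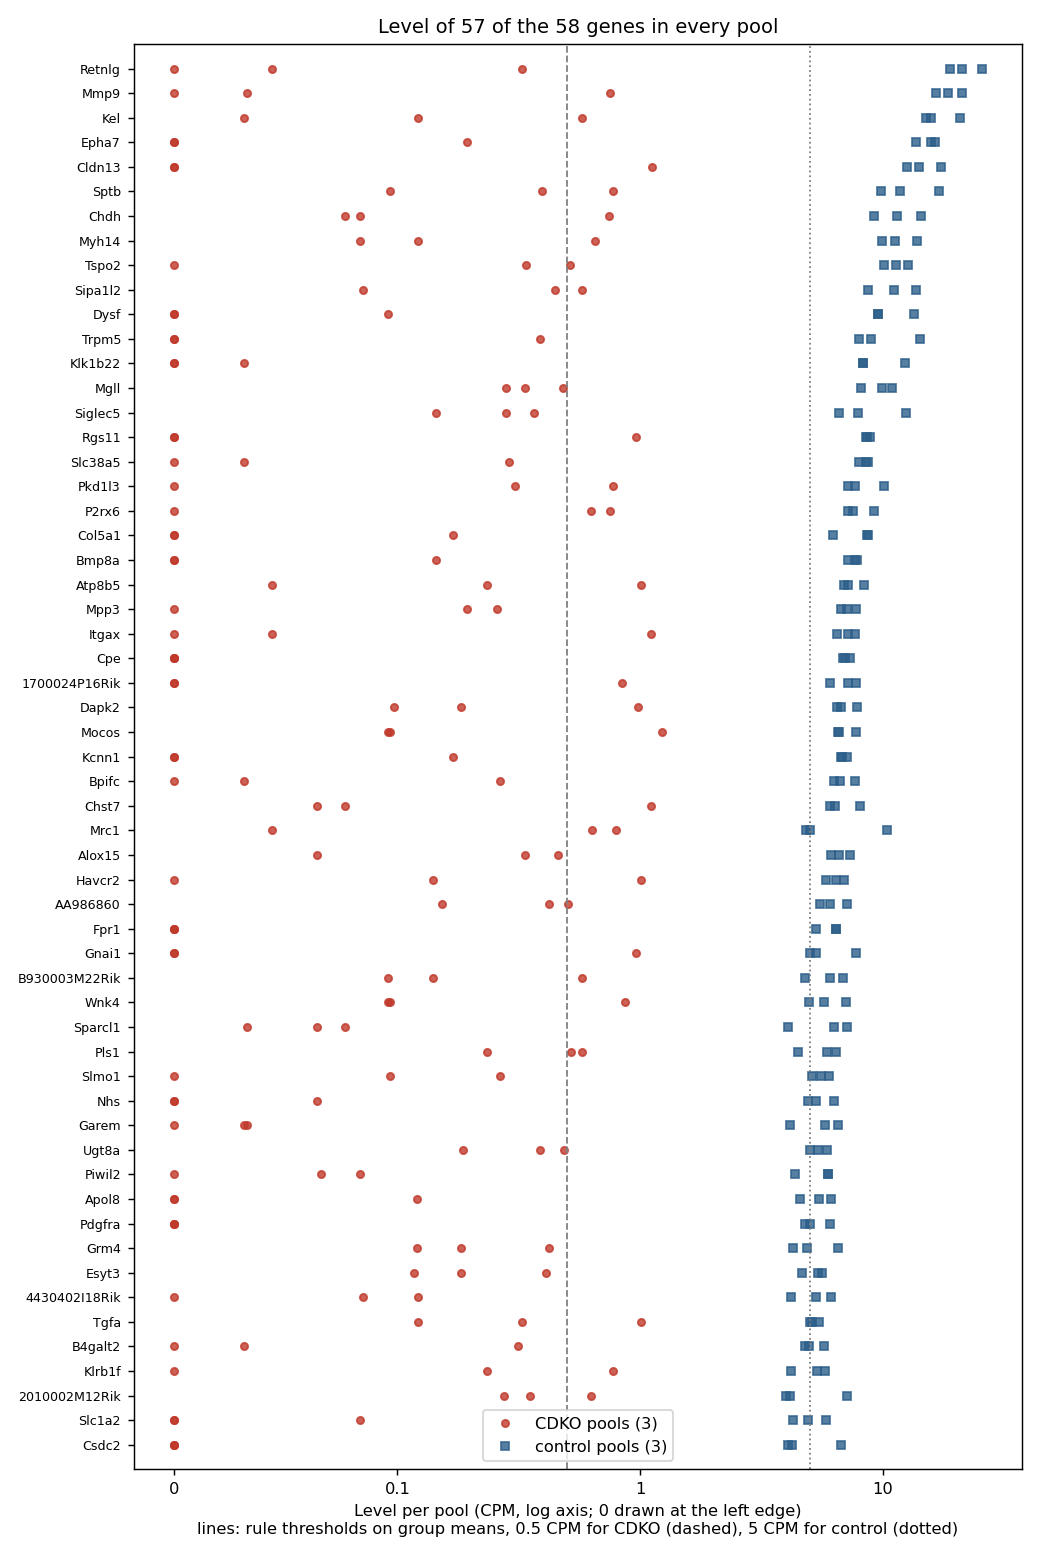
Level of 57 of the 58 genes in each pool (CPM, log axis with 0 at the left edge), CDKO pools as red circles and control pools as blue squares, with genes ordered by control mean and the thresholds of 0.5 and 5 CPM as lines. In every row the control squares lie close together to the right of all CDKO circles, while the circles of 1 gene range from 0 to above 0.5 CPM in many rows.

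No read of Cpe, Fpr1, Pdgfra or Csdc2 was counted in any CDKO library. Cpe, a carboxypeptidase that trims peptide hormones in secretory granules, was at 6.83, 7.32 and 6.99 CPM in control. Fpr1, the formyl peptide receptor by which neutrophils sense bacteria, was at 6.44, 5.32 and 6.42 CPM in control. Pdgfra, a growth factor receptor of mesenchymal cells, was at 6.09, 4.80 and 5.03 CPM in control, and Csdc2, an RNA-binding cold shock protein, at 6.75, 4.22 and 4.06 CPM. For these 4 genes the control values of every pool were far above the level that a count of 0 allows in CDKO. A further 5 genes had 1 to 3 CDKO reads in all. These were Klk1b22 with 1 read, Nhs and Garem with 2 each, and Dysf and Slc1a2 with 3 each.

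Red cell genes made up 5 of the 58, and 4 of these are markers of the erythroid list. Kel, the Kell blood group peptidase of the red cell membrane, was at 0.122, 0.579 and 0.0234 CPM in CDKO and at 20.8, 15.03 and 15.7 CPM in control. Cldn13, a claudin that in mice is found on red cell precursors, had no read in CDKO replicates 1 and 2 and 1.12 CPM in CDKO replicate 3, against 17.4, 12.6 and 14.1 CPM in control. Sptb, the beta chain of red cell spectrin, was at 0.396, 0.772 and 0.0935 CPM in CDKO and at 17.1, 11.8 and 9.85 CPM in control. The highest CDKO pool thus differed between these genes, replicate 2 for Kel and Sptb and replicate 3 for Cldn13. Tspo2, a cholesterol-binding protein of maturing red cells, was at 0, 0.338 and 0.514 CPM in CDKO and at 12.7, 10.1 and 11.4 CPM in control. Summed over the 5 genes, the CDKO pools held 0.517, 1.71 and 2.50 CPM and the control pools 80.3, 58.5 and 62.4 CPM.

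Granulocyte and phagocyte genes numbered 8. Retnlg, a resistin-like protein secreted by granulocytes, was at 0.0304, 0 and 0.327 CPM in CDKO and at 25.6, 21.3 and 18.9 CPM in control. Mmp9, the gelatinase stored in neutrophil granules, was at 0, 0.0241 and 0.748 CPM in CDKO and at 21.1, 16.6 and 18.6 CPM in control. Both were highest in CDKO replicate 3, where Cldn13 was also highest. Siglec5, which RefSeq calls Siglecf, encodes a sialic acid-binding receptor of eosinophils and was at 0.365, 0.145 and 0.281 CPM in CDKO and at 12.5, 7.87 and 6.61 CPM in control. Alox15, a lipoxygenase of eosinophils and tissue macrophages, was at 0.335, 0.458 and 0.0468 CPM in CDKO and at 6.57, 7.35 and 6.14 CPM in control.

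The phagocyte receptors among them were also uneven between the CDKO pools. Mrc1, the macrophage mannose receptor, was at 0.0304, 0.796 and 0.631 CPM in CDKO and at 10.4, 5.02 and 4.84 CPM in control, so control replicate 1 held about as much as the other control pools together. Itgax, the integrin chain CD11c of dendritic cells, was at 0.0304, 1.11 and 0 CPM in CDKO and at 7.21, 7.65 and 6.49 CPM in control, and 46 of its 47 CDKO reads came from replicate 2. Havcr2, the inhibitory receptor TIM-3, averaged 0.384 ± 0.549 CPM in CDKO and 6.38 ± 0.531 CPM in control (SD, n = 3 each), with 42 of 48 CDKO reads in replicate 2.

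The largest set by role, 11 genes, encodes receptors, channels and transporters, most of them best known outside the blood. Epha7, an ephrin receptor tyrosine kinase of the developing nervous system, was at 0, 0.193 and 0 CPM in CDKO and at 16.4, 13.7 and 15.8 CPM in control. Trpm5, a calcium-activated cation channel of taste cells, was at 0, 0.386 and 0 CPM in CDKO and at 14.2, 7.98 and 8.93 CPM in control. In both genes every CDKO read came from replicate 2, as it did for the potassium channel Kcnn1, with 7 reads. P2rx6, an ATP-gated channel, averaged 0.458 ± 0.402 CPM in CDKO and 7.99 ± 1.09 CPM in control (SD, n = 3 each). Pkd1l3, a polycystin of taste cells, averaged 0.359 ± 0.389 CPM in CDKO and 8.33 ± 1.56 CPM in control. In CDKO, P2rx6 had reads in replicates 2 and 3 only, and Pkd1l3 in replicates 1 and 2 only. The transporters Slc38a5, which carries glutamine, and Slc1a2, the glial glutamate carrier, averaged 0.104 ± 0.161 and 0.0234 ± 0.0405 CPM in CDKO, against 8.37 ± 0.374 and 5.02 ± 0.792 CPM in control. The remaining genes of this set, the glutamate receptor Grm4, the lipid flippase Atp8b5 and the lectin-like natural killer cell receptor Klrb1f, had 29, 53 and 42 CDKO reads and 610, 879 and 604 control reads.

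Signalling proteins and secreted ligands made up 8 genes. Rgs11, which speeds GTP hydrolysis by G proteins, was at 0, 0.964 and 0 CPM in CDKO and at 8.87, 8.53 and 8.57 CPM in control. Gnai1, an inhibitory G protein alpha subunit, was at 0, 0.964 and 0 CPM in CDKO and at 5.29, 4.99 and 7.72 CPM in control. Each of these 2 genes had 40 CDKO reads, all of them in replicate 2. Sipa1l2, a protein of a family that acts on the GTPase Rap, was at 0.578, 0.0723 and 0.444 CPM in CDKO and at 13.7, 11.1 and 8.69 CPM in control, and its highest CDKO pool was replicate 1. The kinases Dapk2 and Wnk4 averaged 0.420 ± 0.488 and 0.351 ± 0.448 CPM in CDKO, against 7.0 ± 0.703 and 5.89 ± 1.04 CPM in control. The highest CDKO pool was replicate 3 for Dapk2 and replicate 2 for Wnk4. Garem, an adaptor of growth factor receptor signalling, averaged 0.0158 ± 0.0137 CPM in CDKO and 5.50 ± 1.24 CPM in control. Among the ligands, Bmp8a, a bone morphogenetic protein gene with a near-identical copy in Bmp8b that may have shared its reads, averaged 0.0482 ± 0.0835 CPM in CDKO and 7.57 ± 0.364 CPM in control, and Tgfa, which activates the EGF receptor, averaged 0.487 ± 0.466 CPM in CDKO and 5.20 ± 0.241 CPM in control.

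Metabolic and secretory enzymes made up another 8 genes, Cpe among them. Chdh, the mitochondrial choline dehydrogenase, was at 0.0609, 0.747 and 0.0701 CPM in CDKO and at 14.4, 9.24 and 11.5 CPM in control. Mgll, which cleaves monoacylglycerols, was at 0.335, 0.482 and 0.281 CPM in CDKO and at 10.9, 9.93 and 8.12 CPM in control, so its CDKO pools were more even than those of most of the genes. Klk1b22, a kallikrein-type serine protease, was at 0, 0 and 0.0234 CPM in CDKO and at 12.4, 8.28 and 8.26 CPM in control. It belongs to a cluster of similar genes, 21 of which are listed in the table, so reads may have been divided among copies or left out. Mocos, which activates molybdenum enzymes, averaged 0.471 ± 0.657 CPM in CDKO and 6.98 ± 0.698 CPM in control, and 51 of its 58 CDKO reads came from replicate 2. The sulfotransferase Chst7, the ceramide galactosyltransferase Ugt8a and the galactosyltransferase B4galt2 had 50, 40 and 14 CDKO reads and 804, 638 and 611 control reads.

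Proteins of the cytoskeleton, membranes and matrix also numbered 8. Myh14, a nonmuscle myosin heavy chain, was at 0.122, 0.651 and 0.0701 CPM in CDKO and at 13.8, 11.3 and 9.89 CPM in control. Dysf, the membrane repair protein dysferlin, was at 0.0913, 0 and 0 CPM in CDKO and at 13.4, 9.54 and 9.59 CPM in control. Both were highest in control replicate 1. Col5a1, a fibrillar collagen chain, averaged 0.0563 ± 0.0974 CPM in CDKO and 7.87 ± 1.41 CPM in control, and Sparcl1, a matrix glycoprotein, averaged 0.0439 ± 0.0185 CPM in CDKO and 5.83 ± 1.56 CPM in control (SD, n = 3 each). Pls1, an actin-bundling plastin, had the most CDKO reads of this set, 51, and 655 control reads. The scaffold Mpp3, the lipid transfer protein Esyt3 and Nhs had 19, 28 and 2 CDKO reads and 849, 619 and 648 control reads.

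The last 10 genes have other or less known products. Piwil2, a germ line protein that works with small RNAs, averaged 0.0395 ± 0.0359 CPM in CDKO and 5.41 ± 0.936 CPM in control. 1700024P16Rik, Fyb2 in RefSeq, had all of its 35 CDKO reads in replicate 2 and 832 control reads. 2010002M12Rik, Ifit1bl2 in RefSeq, belongs to the interferon-induced IFIT family and was at 0.274, 0.627 and 0.351 CPM in CDKO and at 7.11, 4.00 and 4.16 CPM in control. B930003M22Rik, Cahm in RefSeq, is the only long noncoding RNA among the 58, and averaged 0.270 ± 0.268 CPM in CDKO and 5.89 ± 1.03 CPM in control. Csdc2 is described above, and the other 5 genes of this set, Slmo1, Bpifc, Apol8, AA986860 and 4430402I18Rik, averaged 0.0402 to 0.360 CPM in CDKO and 5.20 to 6.86 CPM in control.

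Levels can be compared between genes only per exon length, which 57 of the 58 genes had. Per kb of exon, the control means ran from 0.382 CPM for Slc1a2 to 37.0 CPM for Retnlg, with a median of 1.71 CPM. Cldn13 at 13.8, Klk1b22 at 11.3, Kel at 6.20 and Mmp9 at 5.31 CPM per kb were also well above the median. Epha7, the fourth highest by CPM alone, was at 1.55 CPM per kb, under the median. Of the 58 genes 19 share exon sequence with another annotated gene, and the counting is not stated to use strand. Their counts may thus include reads of the neighbour, or reads of the shared exons may have been left out. Sptb with Plekhg3, Trpm5 with Tssc4 and Rgs11 with Arhgdig are 3 such pairs. Arhgdig itself averaged 0.0402 ± 0.0696 CPM in CDKO and 2.62 ± 1.28 CPM in control (log2 difference -1.75, limma adjusted p = 3.29e-05).

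**Figure D2:**
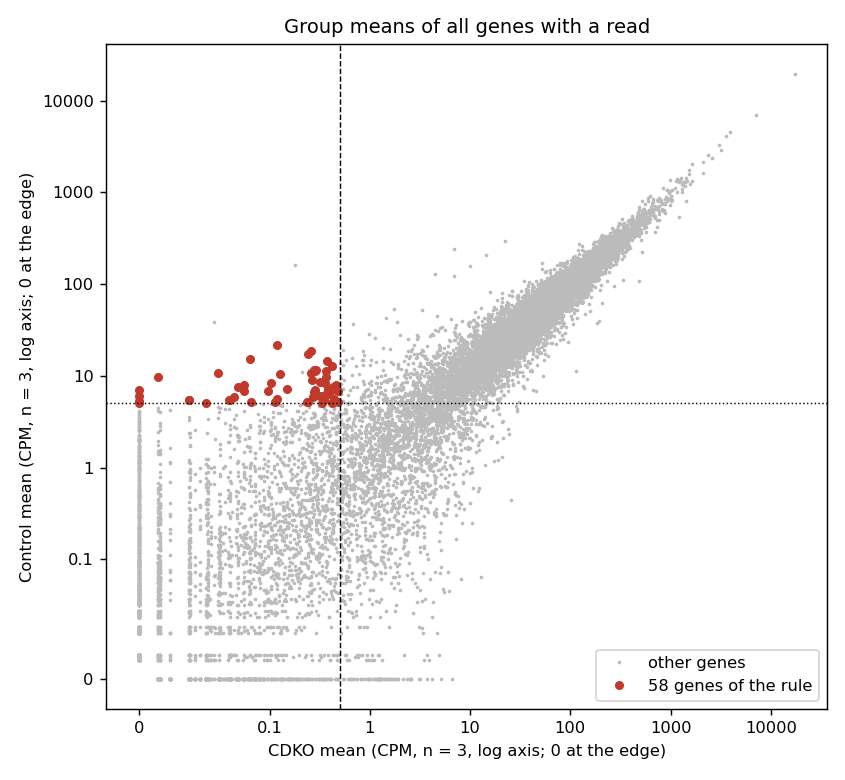
Mean CPM in CDKO (x axis) against mean CPM in control (y axis) for all genes with a read, both axes logarithmic with 0 at the edge, and the thresholds as lines. The 58 genes (red) lie between 5.01 and 21.9 CPM in control and at or under 0.487 CPM in CDKO, and values continue across both lines.

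The few CDKO reads were not spread evenly over the 3 CDKO pools. Summed over the 58 genes, the CDKO pools held 179, 969 and 465 reads, or 5.45, 23.4 and 10.9 CPM, and the control pools 20799, 16040 and 18808 reads, or 531.8, 439.9 and 444.1 CPM. Replicate 2 was the highest CDKO pool for 35 of the 54 genes with a CDKO read, replicate 3 for 13 and replicate 1 for 6. Over all 13734 genes tested the highest CDKO pool was replicate 2 for 33.6%. Among the 754 tested genes outside the 58 that also averaged under 0.5 CPM in CDKO, the highest pool was replicate 1 for 11.3%, replicate 2 for 52.1% and replicate 3 for 36.6%. Other genes of low CDKO level thus also leaned to replicate 2, and whether the 58 did so more was not tested.

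Within single pools the genes were near silent to different degrees. At or over 0.5 CPM were 2 of the 58 genes in CDKO replicate 1, 22 in replicate 2 and 7 in replicate 3, and at 0 reads were 30, 10 and 17. For the median gene 79.6% of the CPM summed over the CDKO pools lay in a single pool. The coefficient of variation between pools had a median of 122% in CDKO and 15.1% in control, and in 33 genes the CDKO SD was larger than the CDKO mean. Counting error alone makes the coefficient larger at the few reads that the rule allows in CDKO, and other genes of that level were not compared. Without CDKO replicate 2 the same thresholds chose 79 genes, 55 of them among the 58, and without CDKO replicate 1 they chose 48, of which 47 were among the 58. In control, replicate 1 was the highest pool for 40 of the 58 genes, against 31.2% of all genes tested.

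**Figure D3:**
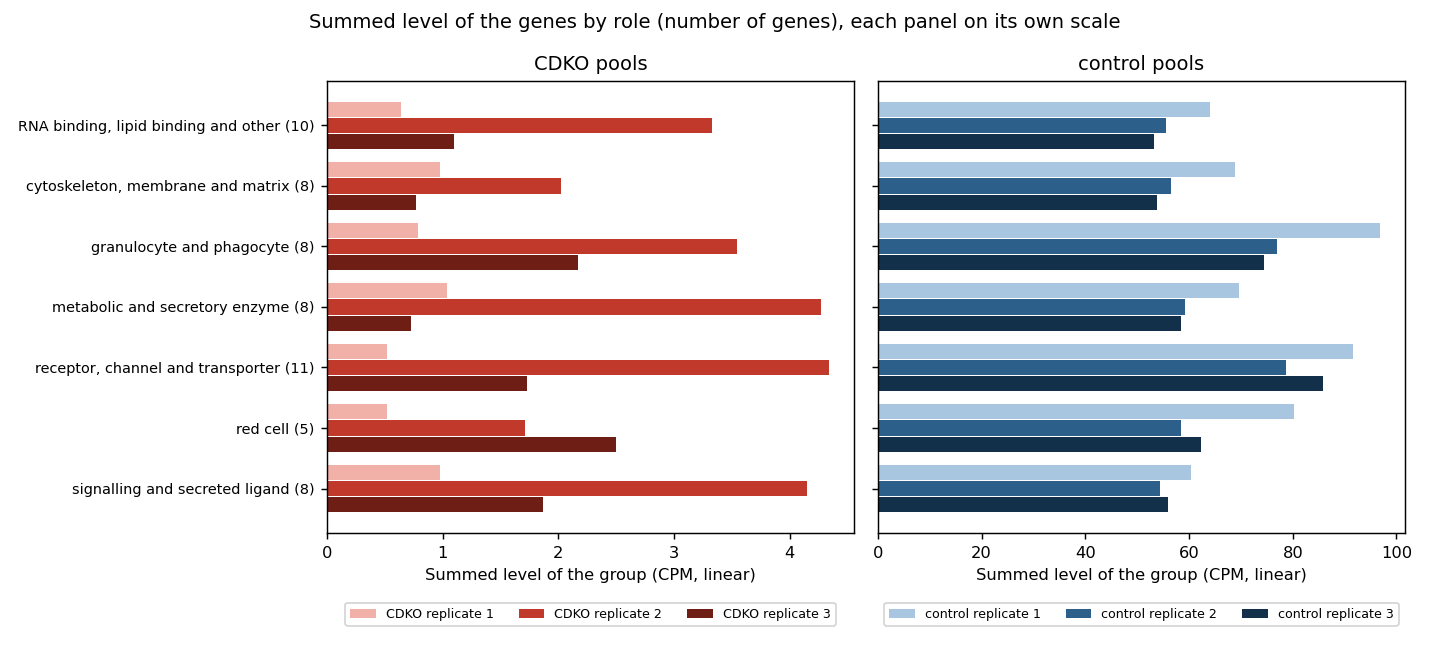
Summed CPM of the genes of each role (bars, linear axis from 0, number of genes in parentheses) in each CDKO pool (left panel) and each control pool (right panel, its own scale). CDKO replicate 2 has the longest bar in 6 of the 7 roles and replicate 3 in the red cell set, and control replicate 1 has the longest bar in every role.

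Just inside the control threshold were Csdc2 (5.01 CPM), Slc1a2 (5.02), 2010002M12Rik (5.09), Klrb1f (5.10) and B4galt2 (5.16 CPM). Just outside it were Prss50 and Tc2n (4.94 CPM each) and Tmtc1 and Adamts14 (4.93 CPM each). At the CDKO threshold the nearest members were Tgfa (0.487 CPM), Mrc1 (0.486), Mocos (0.471), P2rx6 (0.458) and Pls1 (0.443 CPM), and the nearest genes outside were Abcg4 (0.507 CPM), Tmem47 (0.508), Zkscan4 (0.516), Dtx4 (0.520) and Ear1 (0.522 CPM). Values ran on across both thresholds without a gap.

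Genes that the rule did not choose give the setting in which the 58 stand. Of 13734 genes tested, 9097 passed at a limma adjusted p under 0.05, which is 66.2%, with 35.2% lower and 31.1% higher in CDKO, and the median log2 difference was -0.02. The counts that follow leave the 58 genes out and are to be read against these shares, while summed levels are of whole lists, members included.

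Marker lists of mature blood cells were counted apart from the 10 members that belong to them. In the neutrophil list 11 of 13 genes fell and 2 did not pass (84.6% called, median log2 difference -3.66). The smallest p-values were those of the granule and secreted proteins Lcn2 (log2 difference -3.66), Mmp8 (-3.75), Ngp (-5.15) and Chil3 (-2.62), each with a limma adjusted p of at most 9.28e-07. Ngp was at 4.50, 2.75 and 13.7 CPM in CDKO and at 277, 217 and 224 CPM in control, so like Retnlg and Mmp9 it was highest in CDKO replicate 3. The summed level of the whole list was 26.5, 20.6 and 98.8 CPM in the CDKO pools and 830 to 1084 CPM in the control pools. Its part in the levels of the granulocyte genes among the 58 was not tested.

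In the erythroid list 17 of 20 genes outside the 58 fell and 3 did not pass (median -1.42), while 1 of the list passed as higher with TMM scaling, in DESeq2 and without CDKO replicate 2, and 2 did with quantile scaling. Slc4a1, the anion exchanger band 3, was at 1.61, 2.07 and 1.59 CPM in CDKO and at 57.1, 49.4 and 54.7 CPM in control, without the high value in CDKO replicate 3 seen for Cldn13. The log2 differences were -4.31 for Slc4a1, -3.90 for the blood group gene Rhd, -2.06 for Klf1, the red cell transcription factor, and -3.32 for the membrane protein Epb4.2 (limma adjusted p at most 9.51e-08). The summed level of the list was 2680 to 2886 CPM in CDKO and 3531 to 3737 CPM in control, and without Car2, a carbonic anhydrase that did not pass, 404 to 426 CPM in CDKO and 1038 to 1129 CPM in control. The globins Hbb-b1, Hba-a1 and Hba-a2 are listed at 0 in every library. How the counting treated reads of near-identical copies is not given, so these values may not show that globin RNA was absent. The part of this list in the levels of the red cell genes among the 58 was not tested.

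Basophil and mast cell markers fell in 6 of 8 genes tested and 2 did not pass, and eosinophil markers outside the 58 fell in 6 of 6. Of these, Prss34, Ms4a2 and Epx met both thresholds and were left out only by name. Their direction was thus fixed by the values that the rule used, and their p-values add no support. Prss34, a basophil protease removed from the 58 by name, was at 0.0304, 0.482 and 0.0234 CPM in CDKO and at 185, 142 and 163 CPM in control. The log2 differences were -7.14 for Prss34, -4.70 for the protease Mcpt8, and -2.40 and -3.33 for Fcer1a and Ms4a2, the chains of the IgE receptor (limma adjusted p at most 8.08e-07). Among the eosinophil genes the granule proteins Prg2 and Epx had log2 differences of -3.85 and -5.18, the ribonuclease Ear1, one of several near-identical copies, -2.80, and the chemokine receptor Ccr3 -1.58 (limma adjusted p at most 8.42e-05; for Ccr3 0.0686 in DESeq2). The summed basophil and mast cell list was 465 to 485 CPM in CDKO and 706 to 748 CPM in control, and without Gata2, a transcription factor that did not pass, 10.04 to 15.96 CPM in CDKO and 217 to 278 CPM in control. The summed eosinophil list was 13.0 to 13.3 CPM in CDKO and 217 to 248.7 CPM in control. Mast cell proteases Cma1, Tpsb2, Tpsab1 and Mcpt4 are listed at 0 in every library. Their part in the 58 genes was not tested.

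Lists of other cell types were divided or were higher in CDKO. Megakaryocyte markers rose in 9 of 11 genes, 1 fell and 1 did not pass, with log2 differences of 1.53 for Pf4, 2.27 for Ppbp, 0.97 for Gp5 and 1.13 for Gp1bb, all products of platelets (limma adjusted p at most 1.23e-05). T and NK cell markers rose in 6 of 7 genes tested, among them the granzyme Gzma (2.48), Cd4 (1.59), the interleukin-2 receptor chain Il2rb (1.20) and the lectin Klrb1c (0.73), a relative of the member Klrb1f (limma adjusted p at most 0.000273). That list has 13 genes, and its T cell genes Cd3e, Cd3g and Cd8a are listed at 0 in every library. Cd3d, Cd2 and Cd5 averaged at most 0.0643 CPM in either group and were not tested. Of the macrophage and monocyte markers other than Mrc1, 5 rose and 7 fell of 13. Csf1r, a growth factor receptor of macrophages, was at 21.5 ± 1.68 CPM in CDKO and 3.22 ± 0.626 CPM in control (log2 difference 2.42), and Fcgr1, an IgG receptor, also rose (1.91), while Ly6c2 (-0.99) and the adhesion molecule Vcam1 (-1.96) fell (limma adjusted p at most 4.74e-05). Of the dendritic cell markers other than Itgax, 2 rose (Bst2, 0.86, and Cd300c, 1.25) and 3 fell of 6, with Clec9a at -1.08 and Xcr1 at -1.63 (limma adjusted p at most 5.75e-05). B cell markers split into 2 that rose, Cd79b (0.41) among them, and 3 that fell, Igll1 (-0.83) and Vpreb1 (-0.88) among them, of 7 (limma adjusted p at most 0.00119). With a filter of at least 50 reads 2 B cell markers were called, 1 higher and 1 lower.

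Stroma markers rose in 2 of 6 genes, Col1a1 (2.85) and Col3a1 (0.89), 1 fell, Col1a2 (-0.49), and 3 did not pass, Pdgfrb among them (limma adjusted p of the 3 called at most 0.00102). Pdgfrb, the partner receptor of the member Pdgfra, was at 18.4 ± 3.65 CPM in CDKO and 22.5 ± 1.75 CPM in control (SD, n = 3 each; limma adjusted p = 0.0770, and 0.00835 without CDKO replicate 2). Of the HSC markers 5 rose, with Esam at 0.47 and Tek at 0.78, and 8 fell of 15, with Ctnnal1 at -1.0 and Fgd5 at -0.74 (limma adjusted p at most 7.22e-06). The median log2 differences outside the 58 were 0.54 for the megakaryocyte list, 0.73 for T and NK cells, -0.33 for macrophages and monocytes, -0.57 for dendritic cells, -0.25 for B cells, 0.12 for stroma and -0.15 for HSC.

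**Figure D4:**
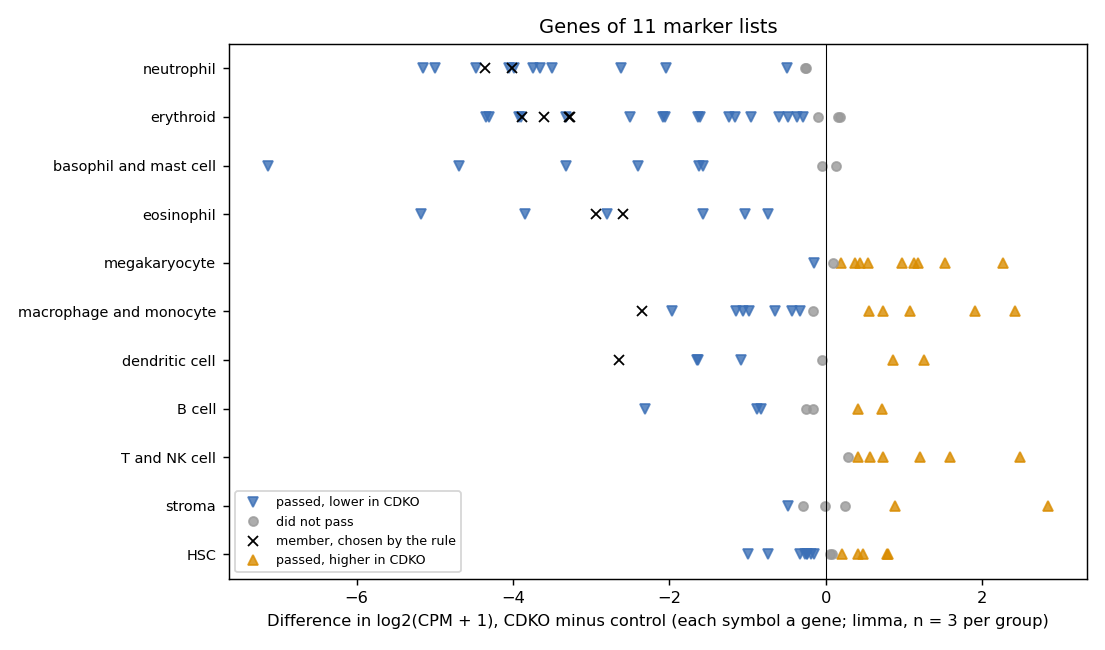
Difference in log2(CPM + 1), CDKO minus control, of each tested gene of the 11 marker lists, with members of the 58 as crosses. The side of the crosses, and of Prss34, Ms4a2 and Epx among the other symbols, was fixed by the values that the rule used. No tested neutrophil, erythroid, basophil, mast cell or eosinophil gene passed on the higher side (1 erythroid gene did with TMM scaling, in DESeq2 and without CDKO replicate 2, and 2 did with quantile scaling), while 9 megakaryocyte and 6 T and NK cell genes passed there.

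Relatives of the 58 genes were found by symbol. Of 155 tested relatives in 42 families, 50 rose (32.3%), 64 fell (41.3%) and 41 did not pass, so 73.5% were called, against 31.1% higher, 35.2% lower and 66.2% called of all genes tested.

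Some members stood opposite to a close relative. Mrc2, the other mannose receptor tested, was at 4.41, 6.27 and 4.07 CPM in CDKO and at 0, 0.0274 and 0 CPM in control (log2 difference 2.53, limma adjusted p = 5.08e-07), the mirror of Mrc1. Alox12, the platelet lipoxygenase, was at 8.76, 7.47 and 4.98 CPM in CDKO and at 0, 0.165 and 1.02 CPM in control (log2 difference 2.57, limma adjusted p = 7.47e-06), whereas Alox15 was under 0.5 CPM in every CDKO pool. Alox5, which starts leukotriene synthesis, fell to 0.850 ± 0.546 CPM in CDKO, against 18.7 ± 3.08 CPM in control (log2 difference -3.45, limma adjusted p = 3.89e-07). The 2 tested relatives of Alox15 were therefore divided, 1 higher and 1 lower in CDKO. Trpm6, a magnesium channel, was at 20.0, 20.0 and 22.02 CPM in CDKO and at 1.41, 1.45 and 1.09 CPM in control (log2 difference 3.23, limma adjusted p = 4.58e-08), against 0.129 CPM in CDKO and 10.4 CPM in control for Trpm5.

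Of 3 tested myosin heavy chains other than Myh14, 2 rose and 1 did not pass. The 7 tested ephrin receptors other than Epha7 were divided, with 2 higher and 5 lower. Myh10, a nonmuscle myosin like Myh14, was at 41.1 ± 1.96 CPM in CDKO and 11.2 ± 3.97 CPM in control (log2 difference 1.83, limma adjusted p = 5.40e-06), and Myh9, the most abundant of them, at 469 ± 4.06 CPM in CDKO and 418 ± 9.58 CPM in control (0.17, limma adjusted p = 0.00229). Epha2 rose to 12.2 ± 1.06 CPM in CDKO, against 3.01 ± 0.701 CPM in control (1.73), while Epha4 fell to 0.0879 ± 0.114 CPM in CDKO, against 3.57 ± 1.17 CPM in control (-2.04), both with a limma adjusted p of at most 5.76e-06. Among the other families, Myof rose (0.61) where its relative Dysf was near silent, Hbegf rose (1.17) where the fellow EGF receptor ligand Tgfa was, and Tspo rose (0.27) where the red cell form Tspo2 was (limma adjusted p at most 0.000777). Gnai2 was at 624 ± 17.2 CPM in CDKO and 651 ± 15.8 CPM in control and did not pass (limma adjusted p = 0.203), and it was expressed at over 600 CPM in each pool of both groups, where Gnai1 had at most 7.72 CPM.

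Other relatives were lower in CDKO, as their member was, although the metalloproteinases, flippases and polycystins each also had 1 that rose. Of the tested matrix metalloproteinases other than Mmp9, 8 of 9 fell, Mmp8 among them. The flippase Atp8b4 fell to 2.42 ± 3.15 CPM in CDKO, against 24.98 ± 3.93 CPM in control (log2 difference -3.31, limma adjusted p = 8.08e-05), and in CDKO it was highest in replicate 3, at 6.03 CPM. Pkd1l2 had no read in any CDKO library and 3.50, 2.93 and 3.07 CPM in control (log2 difference -2.06, limma adjusted p = 6.89e-07), in the same direction as Pkd1l3. Itgam, the CD11b chain, fell to 6.52 ± 3.54 CPM in CDKO, against 14.98 ± 0.832 CPM in control (-1.20, limma adjusted p = 0.00207), and like Itgax it was highest in CDKO replicate 2.

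**Figure D5:**
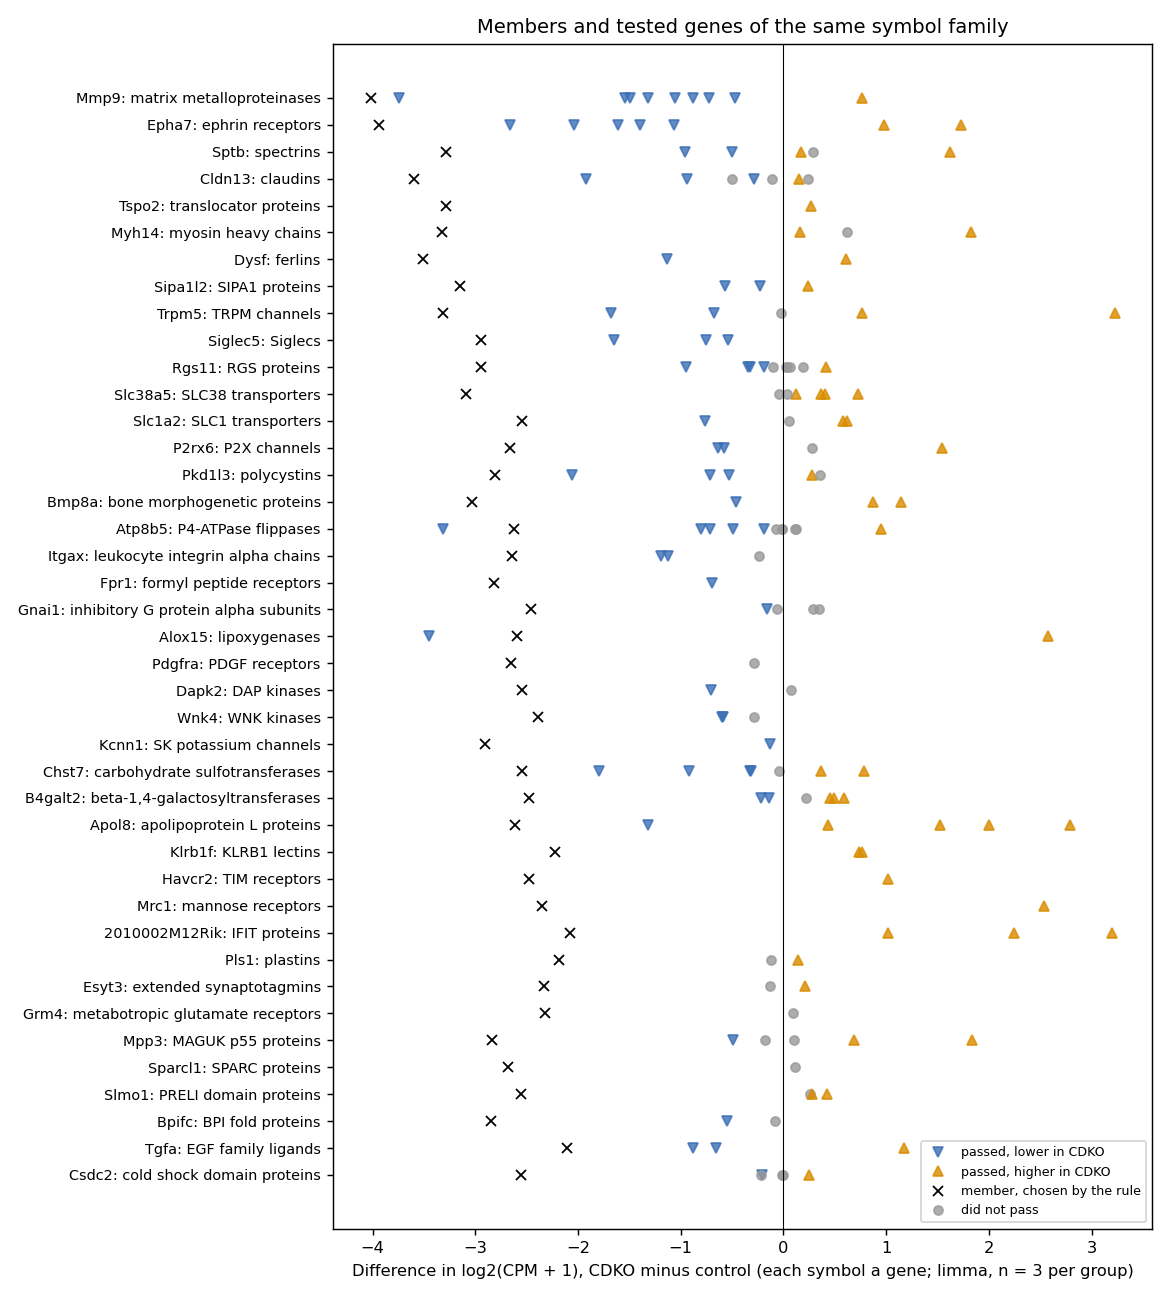
Difference in log2(CPM + 1), CDKO minus control, of the tested relatives of each member (symbols by call), 1 row per family, with the member itself as a cross. Relatives that passed lie on both sides of 0 in 20 of the rows, with Mrc2, Alox12 and Trpm6 far to the right of their member.

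Chromosomal neighbours were not part of the rule either, though some, such as Alox12, Ifit1, Itgam and Myh9, are also among the relatives above. The 58 genes lie on 19 chromosomes. Of the 116 nearest tested genes on either side, 36 rose, 47 fell and 33 did not pass (71.6% called, median log2 difference -0.12), close to the 66.2% of all genes tested. The 6 neighbours with the largest difference were Apol9b, Ephb6, Alox12, Add2, Ifit1 and Pigr. Ephb6, a kinase-dead ephrin receptor 65.8 kb from Kel, was at 4.97 ± 3.00 CPM in CDKO and 33.0 ± 2.22 CPM in control (log2 difference -2.66, limma adjusted p = 2.72e-05). Add2, a red cell membrane skeleton protein gene 70.6 kb from Tgfa, was at 0, 0.458 and 4.18 CPM in CDKO and at 9.59, 10.9 and 7.39 CPM in control (-2.38, limma adjusted p = 0.000742; 0.192 in DESeq2). Pigr, an immunoglobulin transport receptor, had no read in CDKO and 3.51 ± 0.524 CPM in control (-2.17, limma adjusted p = 6.87e-07). Alox12 lies 88.8 kb from Alox15.

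Apol9b and Ifit1 went the other way at short distance. Apol9b, 8.73 kb from Apol8 and nearly identical to Apol9a, was at 27.4, 22.01 and 22.9 CPM in CDKO and at 3.40, 2.39 and 2.15 CPM in control (log2 difference 2.79, limma adjusted p = 1.96e-07). Apol8 itself was at 0, 0.121 and 0 CPM in CDKO and at 6.14, 5.46 and 4.56 CPM in control. The groups did not overlap for Apol9b, as they did not for 70.6% of all genes tested. They did not overlap for Apol8 either, in the opposite direction, but its choice by the rule made that likely.

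Ifit1, an interferon-induced protein that binds foreign RNA, is annotated on the opposite strand, 0.062 kb from the end of the 2010002M12Rik gene model at chr19:34640827. It was at 192, 173 and 188 CPM in CDKO and at 35.6, 39.5 and 39.4 CPM in control (log2 difference 2.25, SE 0.06, limma adjusted p = 1.18e-09). The interferon-induced relatives Ifit2 and Ifit3, the last with a near-identical copy, rose as well, by log2 differences of 1.02 and 3.20 (limma adjusted p at most 8.88e-07). All 3 tested relatives of 2010002M12Rik found by symbol were thus higher in CDKO, while it was itself near silent. Gm14446, its nearest tested gene on the other side, at 0 kb, was also higher. It was at 55.9 ± 6.07 CPM in CDKO and 24.8 ± 2.77 CPM in control (log2 difference 1.14, limma adjusted p = 3.21e-06). Whether reads were shared between these adjoining gene models was not tested. In the stretch shown above, the ISRE letters occur at chr19:34640785-34640794 and at chr19:34640804-34640813. Counted from the transcript start of 2010002M12Rik nearest to Ifit1 in the promoter table, chr19:34640743, these lie 51 and 70 bases before it, and counted from Ifit1 they begin 104 and 85 bases before it. The gene model of 2010002M12Rik reaches past that transcript start, so both sites lie inside the gene as annotated.

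The genes were also placed against the engineered loci. The one nearest to Nr4a1 on chromosome 15 was Csdc2, 19.3 Mb away, the one nearest to Nr4a3 on chromosome 4 was Atp8b5 at 4.67 Mb, and the one nearest to the Rosa26 locus on chromosome 6 was Klrb1f at 15.97 Mb. Among themselves, 5 neighbouring pairs lay within 2 Mb, the closest being Klk1b22 and Myh14 on chromosome 7, 0.489 Mb apart.

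Promoter windows of 300 bases, 250 before and 50 after the start, were in the reference for 44 of the 58 genes, as 54 windows. On either strand AGATAA, the only form of the GATA factor motif searched for, was in 5 windows, or 9.26%, against 11.2% of all 32851 windows of that length. TTGCNNAA (C/EBP) was in 7, or 13.0%, against 10.8%. CCACACCC (KLF1) was in 3, or 5.56%, against 3.56%, and TATAAA (the TATA box) in 3, or 5.56%, against 13.6%. AAAGGTCA, the element bound by NR4A proteins as monomers, was in none of the 54 windows, against 1.51% of all windows. The ISRE letters were in 2, or 3.70%, against 3.44%. The C/EBP letters were in windows of Slc1a2, Pdgfra, Pkd1l3, Sipa1l2, Retnlg, Slc38a5 and Chst7, and the GATA letters in those of Bmp8a, Kel, Klrb1f, Itgax and Bpifc, so among the red cell genes with a window, Kel, Sptb and Tspo2, only Kel held AGATAA. Among the granulocyte and phagocyte genes with a window, Retnlg, Fpr1, Siglec5, Havcr2, Itgax and Mrc1, only Retnlg held the C/EBP letters.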

How the data were processed

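RNA of 3 CDKO and 3 control pools was extracted on micro columns, amplified with a SMARTer low-input kit and made into Nextera XT libraries, per the labels' protocols. TopHat2, HTSeq and DESeq2 are named without versions, with build mm10, per the submitters' processing notes; the annotation, strand setting and filters are not given in the sources used here. Amplification from little RNA adds noise to values of a few reads, which the counting limits leave out.

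The deposited values per library are CPM of its counted reads, and whole reads were recovered for 99.9989% of values above 0 (tolerance 0.01 read). The authors' baseMean is a signal scaled by size factors. Their log2 fold change and its error set control over CDKO, their stat column is a score, and the deposited p-value columns are those of DESeq2; none of these was used for a result. All 6 libraries had a label, and 12 date-named rows were left out.

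The members, the marker lists, the families and the tests were chosen with earlier results of these data known. Genes with a mean of at least 10 recovered reads entered a limma fit (version 3.58.1, run in R 4.3.3) of log2(CPM + 1) whose eBayes step allowed for a trend of the variance with the mean, as CDKO minus control, two-sided, at a Benjamini-Hochberg adjusted p of 0.05. A fold change on that scale understates changes of low genes. The test was checked on simulated data. Called shares are read against those of all genes tested, and no gene set test was made. Values with ± are means and SD over 3 pools.

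Named by rule were all members, with every pool's value for the 15 highest in control and for marker genes, the 5 genes nearest each threshold, up to 4 non-members per marker list by smallest p, the 6 flanking genes that differed most, and Nr4a1, Nr4a2, Nr4a3 and Cebpa. Some genes that this rule names, 1 of the 58 among them, are not reported singly here. Family relatives, Arhgdig, further members given by pool and the ISRE motif were chosen after their values were seen. Marker lists were neutrophil, erythroid, basophil and mast cell, eosinophil, megakaryocyte, macrophage and monocyte, dendritic cell, B cell, T and NK cell, stroma and HSC. Gene positions and promoter windows are from RefSeq GRCm38.p6, which matched all 58 genes, 6 of them under an older symbol, and exon lengths and overlaps from GENCODE of the same build. Flanking genes are the nearest tested genes on each side. Alternatives were a replicate block, leaving out each library, other filters, scalings and pseudocounts, edgeR 4.0.16 and DESeq2 1.42.0 on the recovered reads, and other thresholds of the rule. The correlation of deviations between libraries of the same number was 0.0518, 0.0483 and -0.0120.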

Additional observations from a re-analysis of the deposited data

How the results depend on the processing

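The number of genes found follows the thresholds: 289 genes with a control mean of at least 2 CPM, 13 with at least 10 CPM, 27 with a CDKO mean under 0.25 CPM and 105 under 1 CPM, against 58. It was 56 with TMM scaling, 75 with the median of the pools (50 of the 58 among them) and 48 to 79 when a library was left out. The count of genes passing across the table was 9097 in the main test, 8789 in edgeR, 8791 in DESeq2, 9037 with no filter, 8251 with at least 50 reads, 9135 with quantile scaling and 8255 to 8708 without a library. The 5 B cell markers called became 2 with a filter of at least 50 reads, which tests fewer genes. The counts for the other marker lists, the flanking genes and the relatives stayed within 1.5 times of the main count under every alternative run. With a replicate block the table gave 9242 genes. The labels do not pair equal numbers, and the correlations of equal numbers were at most 0.0518, so the main test used no block. Whether samples of equal number shared a day or a litter is not known. None of the named genes outside the 58 reversed under these alternatives. Besides Ccr3 and Add2 in DESeq2, no named gene lost its call in an alternative that tested it (Col3a1 was tested in 13 of 15, Cd300c, Igll1, Il2rb and Vpreb1 in 14), and Nr4a2, Pdgfrb and Gnai2 gained one under some settings (Nr4a2 at pseudocount 5, under the block and without CDKO replicate 3; Pdgfrb under the block and without CDKO replicate 2; Gnai2 with quantile scaling). Depth limits levels of 0 to at most 0.0913 CPM in CDKO, and ratios of these genes rest on 0 to 61 CDKO reads.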
